A study of Rattus norvegicus with 6 samples.

Results

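The cytosolic ribosome reads messenger RNA and joins amino acids into protein. Its small subunit (proteins named Rps) decodes the message, its large subunit (Rpl) forms the peptide bond, and the acidic stalk (Rplp0, Rplp1 and Rplp2) brings in the elongation factors. In vertebrates most of these messages belong to the TOP class, which begin with a cytosine followed by a run of pyrimidines and whose translation is controlled through the growth kinase complex mTORC1. Mammalian genomes also carry many intron-less copies of these genes, made by reverse transcription of spliced messages, and short reads can be hard to place between a gene and its copies.

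The 77 genes described here were chosen by name alone, as every symbol in the deposited table that reads Rpl or Rps with a number and at most a pair of letters, or Rplp0, Rplp1 or Rplp2, of 27945 symbols in all. They occupy 85 rows of the table, because 6 symbols have more than 1 row, and rows that share a symbol were summed. Female Wistar rats aged 8 weeks and weighing 200 to 230 g were the source of the spinal cord RNA, and every sample is labelled as a spinal cord injury model. There were 3 libraries from rats that received electrical stimulation (ES) and 3 from rats that did not (SCI), and there was no uninjured group. Whether each library stands for its own rat is not in the labels, so the p-values rest on a spread between libraries that may be technical. The level, site and method of injury, the stimulation settings and the time of sampling are not given in the labels.

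Values are FPKM, the number of fragments per kilobase of gene, scaled to the size of the library. Estimated depth was 14000000 to 16200000 read pairs in the ES libraries and 16400000 to 18700000 in the SCI libraries. For a typical well expressed ribosomal protein gene, counting error at this depth was 1.61% of the level, and the observed coefficient of variation had a median of 2.28% in ES and 3.42% in SCI over 61 single-transcript rows. A gene was called where limma on log2(FPKM + 1) gave a Benjamini-Hochberg adjusted p under 0.05 over the 15446 genes tested, and log2 fold changes are ES minus SCI with their standard errors (SE). Fold changes on this scale understate those of low genes.

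The windows around the annotated starts show what many of these genes share. Of 60 RefSeq windows (assembly GRCr8) for 59 of the 77 genes, 37 (61.7%) held a C followed by at least 4 C or T bases beginning within 5 bases of the start, against 5704 of 33469 windows of all genes (17%), counted on the transcribed strand alone. For 6 genes (Rpl9, Rpl35a, Rpl37, Rpl38, Rpl39 and Rps13) the window lies on another chromosome than the measured row. Among the others, counting a symbol once, the tract was present in 7 of 11 genes called higher in ES, in 5 of 9 called lower and in 20 of 32 not called. The examples below cover each direction and include a higher and a lower gene without a tract. Each runs 5′ to 3′ over the 20 bases before the start and the 20 from the start on, with the tract in capitals.
Rpl17: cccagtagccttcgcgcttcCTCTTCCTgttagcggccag
Rps18: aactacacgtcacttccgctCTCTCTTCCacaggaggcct
Rps24: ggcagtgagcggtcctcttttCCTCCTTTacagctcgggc
Rpl5: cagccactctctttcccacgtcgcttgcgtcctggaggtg
Rpl4: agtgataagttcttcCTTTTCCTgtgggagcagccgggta
Rpl28: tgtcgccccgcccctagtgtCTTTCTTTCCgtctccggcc
Rps9: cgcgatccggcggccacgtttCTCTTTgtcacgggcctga
Rpl24: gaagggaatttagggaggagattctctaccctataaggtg
Rpl35: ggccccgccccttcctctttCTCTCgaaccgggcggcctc
Rplp0: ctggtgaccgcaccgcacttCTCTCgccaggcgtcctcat
In GRCr8 these windows lie at chr18:70856256-70856295 (Rpl17, plus strand), chr20:4933725-4933764 (Rps18, plus), chr16:96497-96536 (Rps24, plus), chr14:1995206-1995245 (Rpl5, minus), chr8:73566457-73566496 (Rpl4, plus), chr1:78083513-78083552 (Rpl28, minus), chr1:74430418-74430457 (Rps9, minus), chr11:58128386-58128425 (Rpl24, minus), chr3:43165902-43165941 (Rpl35, minus) and chr12:46718371-46718410 (Rplp0, minus). Rpl17, Rps18, Rps24 and Rpl5 were called higher in ES, Rpl4, Rpl28, Rps9 and Rpl24 lower, and Rpl35 and Rplp0 were not called. The capitals mark 8 bases in Rpl17 and Rps24, called higher, and in Rpl4, called lower. In each of these genes the run of C and T begins before the capitals and is longer than the part marked. A match is a description of the letters in this window and not a measured start site.

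Ribosomal protein RNA as a whole differed little between the groups. The 77 genes summed to 30144.0, 29912.6 and 30440.5 FPKM in the ES libraries and to 30020.2, 29561.9 and 29595.3 in the SCI libraries. The ranges overlapped, with means of 30166 ± 265 and 29726 ± 256 (SD, n = 3), a difference of 1.48%. The large subunit differed by 1.52% and the small subunit by 2.78%, ES being above SCI, and the stalk lay the other way at -4.97%. The direction of the total depended on scaling, because total gene FPKM differed between groups. As a share of all gene FPKM the 77 genes held 5.27% ± 0.05 in ES and 5.47% ± 0.03 in SCI, a difference of -3.59%. These shares did not overlap, at 5.23% to 5.32% in ES and 5.45% to 5.51% in SCI. Mitochondrially encoded transcripts, which enter total gene FPKM, made up 15.3% to 15.5% of FPKM in ES and 11.1% to 12.1% in SCI.

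**Figure D1:**
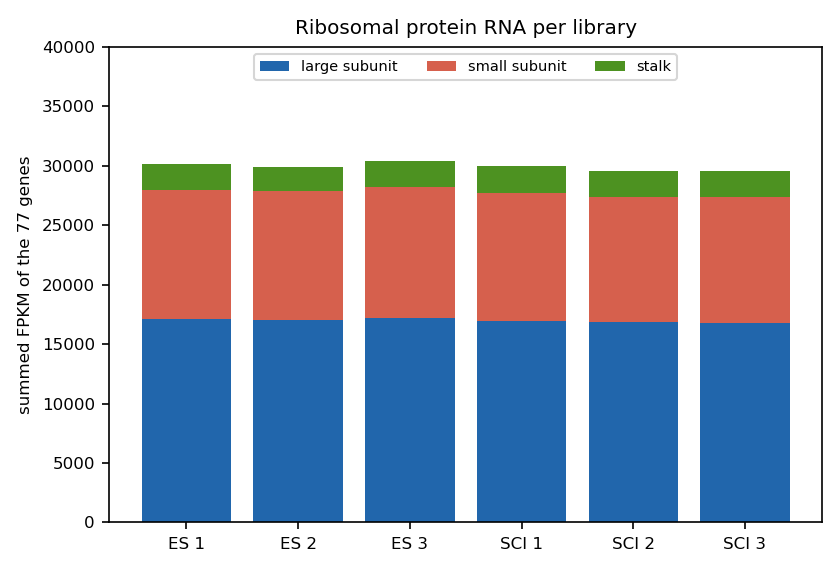
Summed FPKM of the 77 genes in each of the 6 libraries, stacked by large subunit, small subunit and stalk. The totals lie between 29561.9 and 30440.5, and the ranges of the groups overlap.

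Individual genes moved in both directions under this total, whose ranges overlapped on the deposited scale. Of 75 genes tested, 21 were called higher in ES (28.0%), 15 lower (20%) and 39 were not called. The background over all genes was 17.8% higher and 28.0% lower, or 45.8% in either direction, so that the 48.0% of ribosomal protein genes called in either direction was near the background. Genes with a mean of at least 50 FPKM, a comparison added after the values were seen, were called in 68.2% of cases. The other 2 genes, Rpl39l and Rpl3l, were under the minimum mean of 0.5 FPKM. The groups did not overlap for 25 genes with ES above SCI (22.0% of all genes did so) and for 19 with ES below SCI (34.9% of all genes).

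Most of the differences were small. The median log2 fold change of the 75 genes was 0.01 against -0.06 for all genes tested, and the median size of the change was 0.12 against 0.20. In 31 genes the change was within 0.1 of 0, and in only 3 did it reach 0.5 in size, namely Rpl30, Rpl35a and Rpl10l. The higher and lower counts depended on the scaling, and so did those of all genes. Rescaling each library to equal totals gave 14 higher and 26 lower (13.3% and 36.2% of all genes), and leaving out mitochondrially encoded genes gave 20 and 17 (17.0% and 28.7%). Quantile normalization gave 11 and 24 (22.2% and 21.0%), and centring on the library median 37 and 6 (26.5% and 19.0%). Under all 5 scalings, the deposited one included, 10 genes were called higher, among them Rpl8, Rpl17, Rpl30, Rpl35a, Rps10, Rps13, Rps15a, Rps18 and Rps24, and 6 lower, among them Rpl4, Rpl10l, Rpl24, Rpl32 and Rps25. A further 5 genes, Rpl13a, Rpl18, Rpl27a, Rpl35 and Rps3, were called higher under at least 1 scaling and lower under another. In bulk tissue, fewer cells of a type and less RNA per cell cannot be told apart.

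**Figure D2:**
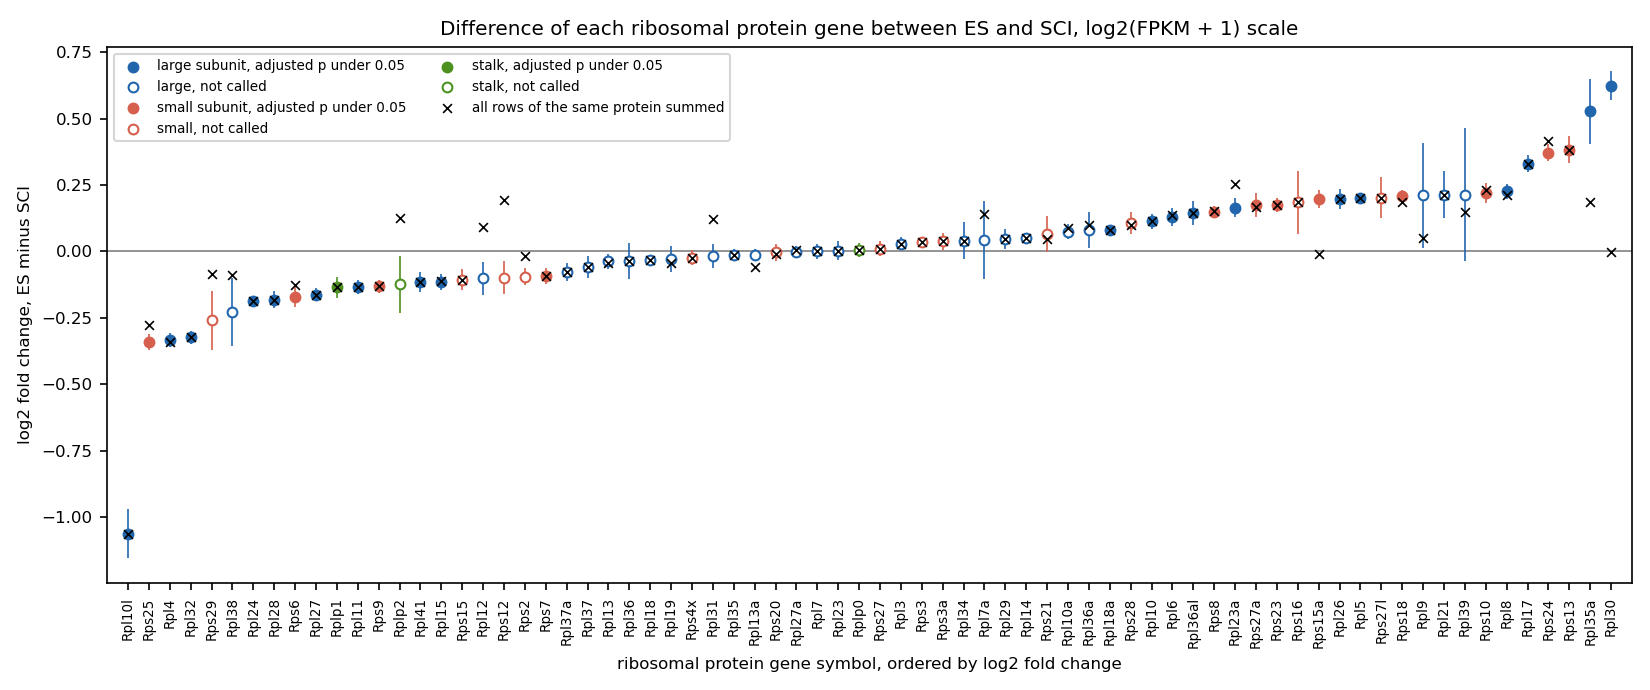
Log2 fold change (ES minus SCI, with SE) of 72 of the 75 genes tested, ordered by size and coloured by subunit. Filled points were called, and black crosses give the change when all rows of the same protein are summed. For Rpl30 the cross (-0.0015) lies far from the point (0.62).

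**Figure D3:**
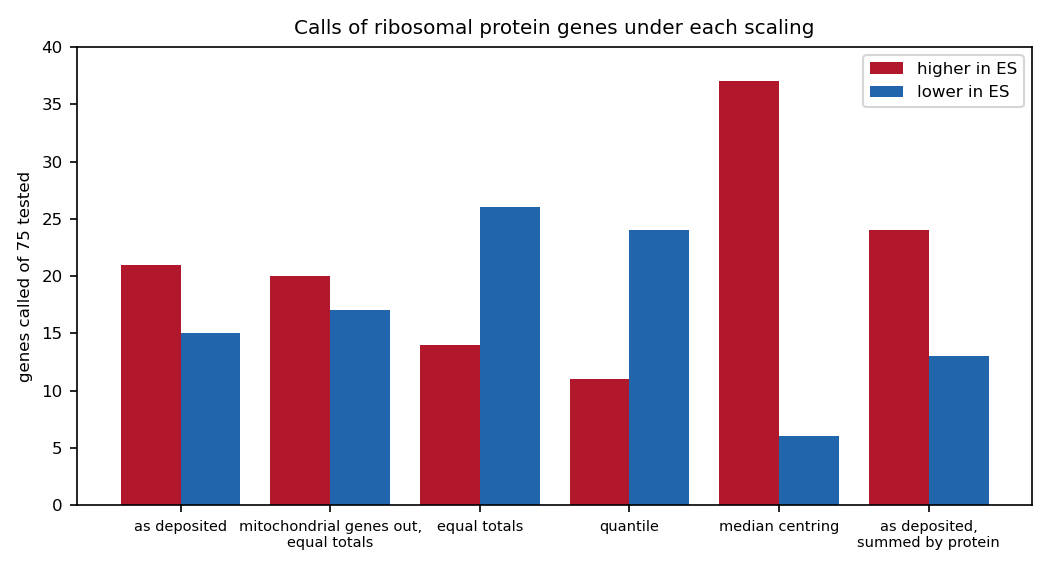
Number of the 75 genes called higher (red) or lower (blue) in ES under 5 scalings and after summing rows by protein. The split runs from 37 higher and 6 lower with median centring to 11 and 24 with quantile normalization.

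In the large subunit 11 of 44 genes tested rose and 9 fell, against 17.8% and 28.0% of all genes. Rpl17, which lines the tunnel through which the new peptide leaves, measured 611.9, 605.8 and 608.7 FPKM in ES and 505.5, 464.9 and 483 in SCI. The groups stood apart, and the log2 fold change was 0.33 ± 0.03 (limma, adjusted p = 0.00030). Rpl4, another protein of the tunnel wall, went the opposite way, with 448.5, 458.5 and 462.4 FPKM in ES below 578.1, 586.7 and 561.4 in SCI. Its log2 fold change was -0.33 ± 0.02 (limma, adjusted p = 9.0e-05).

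Rpl5 and Rpl11 bind the 5S ribosomal RNA together, and as a free complex they restrain Mdm2, the ligase that removes p53. Rpl5 measured 536.9, 535.7 and 541.5 FPKM in ES and 470.8, 473.4 and 460.8 in SCI, higher in every ES library. Rpl11 measured 81.08, 82.06 and 82.9 FPKM in ES and 88.22, 92.78 and 89.35 in SCI, lower in every ES library. Its level cannot be set beside that of Rpl5, because its 3 transcripts summed to 6.70 times the gene value (541 FPKM in ES and 613 in SCI). The main Rpl11 transcript, ENSRNOT00000030043, was not called (log2 fold change -0.25 ± 0.09, limma adjusted p = 0.098). The log2 fold changes were 0.20 ± 0.02 for Rpl5 (limma, adjusted p = 0.00032) and -0.13 ± 0.03 for Rpl11 (limma, adjusted p = 0.0079). Rpl5 was not called under quantile normalization (0.06) nor Rpl11 under median centring (-0.04).

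Rpl8, which lies near the catalytic centre, measured 270.8, 255.6 and 265.1 FPKM in ES against 229.8, 224.6 and 221.7 in SCI (log2 fold change 0.23 ± 0.03, limma adjusted p = 0.00094). Rpl32 measured 472, 476.6 and 452.5 FPKM in ES against 592, 580.3 and 581.2 in SCI over its 2 rows. It fell by 0.32 on the log2 scale (SE 0.03, limma adjusted p = 0.00012), and both rows fell, the gene with 4 exons on chromosome 4 and a single-exon row on chromosome 6. Rpl24, which bridges the subunits, measured 450.9, 457.7 and 456.3 FPKM in ES and 512.8, 526 and 514.6 in SCI. The groups again did not overlap (log2 fold change -0.19 ± 0.02, limma adjusted p = 0.00045).

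Rpl10, which joins the large subunit late, rose by 0.11 ± 0.03 on the log2 scale, although not without ES replicate 3 (limma, adjusted p = 0.054). Rpl26 rose by 0.20 ± 0.04 and Rpl23a, near the tunnel exit, by 0.16 ± 0.03. None of these 3 was called under quantile normalization, nor were Rpl10 and Rpl23a with equal totals. Rpl27, Rpl28 and Rpl15 fell by 0.16, 0.18 and 0.12, although not with median centring, and Rpl15 lost its call without ES replicate 1 or SCI replicate 3 (limma, adjusted p = 0.056 and 0.052). Rpl41, the shortest protein of the ribosome, had the highest level of the 77 genes, at 1286 ± 21.7 FPKM in ES and 1395 ± 68.3 in SCI (limma, adjusted p = 0.043). That call was lost on removal of any library but SCI replicate 2 (limma, adjusted p = 0.066 to 0.12), and under quantile normalization or median centring. Rpl3, at the peptidyl transferase centre, measured 183 ± 3.20 FPKM in ES and 179 ± 2.95 in SCI and was not called (log2 fold change 0.03 ± 0.02, limma adjusted p = 0.38), although it was with median centring (0.12). The 8 transcripts of Rpl3 summed to 2.85 times the gene value and lay the other way, at 509 FPKM in ES and 524 in SCI. Rpl35, with 888 ± 19.4 and 897 ± 6.07 FPKM, was not called either, but it was called lower with equal totals (-0.09) and higher with median centring (0.08).

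In the small subunit 10 of 28 genes tested rose and 5 fell, against 17.8% and 28.0% of all genes. Rps24, a protein whose gene is mutated in some families with Diamond-Blackfan anaemia in humans, measured 499.9, 511.5 and 531.8 FPKM in ES and 389.2, 410 and 392.4 in SCI. Every ES library lay above every SCI library, with a log2 fold change of 0.37 ± 0.03 (limma, adjusted p = 0.00017). Rps18, a protein of the head of the subunit, measured 185.3, 190.2 and 189.3 FPKM in ES against 163.3, 165 and 160 in SCI (log2 fold change 0.21 ± 0.02, limma adjusted p = 0.00052). Rps10 rose by 0.22 ± 0.04 on the log2 scale, of which its 4-exon row on chromosome 20 alone gave 0.12 ± 0.04, not called, and its single-exon row on chromosome 6 gave 0.46 ± 0.08.

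Rps25, which is needed for translation from some internal ribosome entry sites, measured 304.1, 313.4 and 310.5 FPKM in ES and 399.6, 376.8 and 399 in SCI. It was lower in every ES library, with a log2 fold change of -0.34 ± 0.03 (limma, adjusted p = 0.00018). Rps6, the ribosomal substrate of S6 kinase, measured 348.8, 355.8 and 332.1 FPKM in ES and 393.9, 400.4 and 373.1 in SCI. It fell by 0.17 on the log2 scale (SE 0.04, limma adjusted p = 0.0099), although not with median centring. Rps9, which acts in decoding accuracy, fell by 0.13 (SE 0.02), and Rps7 fell by 0.09 (SE 0.03, limma adjusted p = 0.044) with a sign that turned to 0.004 under median centring. The Rps7 call was lost on removal of any library but SCI replicate 2 (limma, adjusted p = 0.054 to 0.13), and Rps9 was not called with median centring.

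The stalk genes did not move together. Rplp0, the base of the stalk, measured 948.1, 933 and 927.4 FPKM in ES and 961, 911.8 and 926.6 in SCI, overlapping ranges (log2 fold change 0.005 ± 0.03, limma adjusted p = 0.89), although called higher with median centring (0.10). Rplp1 measured 1062, 1027 and 1119 FPKM in ES and 1214, 1139 and 1167 in SCI, lower in every ES library (log2 fold change -0.13 ± 0.04, limma adjusted p = 0.028). Without ES replicate 1 or 2, or SCI replicate 1 or 3, Rplp1 was not called (limma, adjusted p = 0.066 to 0.081), nor was it with median centring. Rplp2 measured 140.3, 106.7 and 143.7 FPKM in ES and 140.8, 140.7 and 140.8 in SCI and was not called. The low ES replicate 2 of Rplp2 was matched in a 4-exon row described as P2-like, LOC100911575 on chromosome 1, which measured 195.2, 235.8 and 189.4 FPKM in ES and was highest in that library. Summed over its 4 rows, protein P2 had 537 ± 5.96 FPKM in ES and 492 ± 11.3 in SCI, a log2 fold change of 0.13 ± 0.02 (limma, adjusted p = 0.0047).

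Several members are tissue-restricted or stress-linked paralogs of another member. Rpl10l, an intron-less paralog of Rpl10 known for its role in the testis, measured 4.50, 4.62 and 4.12 FPKM in ES and 9.86, 11.9 and 9.32 in SCI. It had the largest decrease of the 75 genes tested (log2 fold change -1.06 ± 0.09, limma adjusted p = 0.00018), and it was the only row of the 85 that the authors' deposited table marked as significant, at a log2 change of -1.23. At the p-values under 0.05 of the authors' deposited table, 23 of the 85 rows were higher and 5 lower, against 8.67% and 9.27% of all rows. These backgrounds are not like for like. Of all 32623 rows only 15750 had a mean of at least 0.5 FPKM, against 83 of the 85. The log2 ratio of Rpl10l to Rpl10 was -7.08 ± 0.09 in ES and -5.90 ± 0.14 in SCI (SD, n = 3), which differed by -1.18. The exact two-sided permutation p was 0.1, the smallest that 3 against 3 libraries allow, and 0.4 after adjustment over the 4 pairs tested. Rps27l, a paralog induced by p53 in mammalian cells, differed from Rps27 by 0.19 more in ES (exact permutation p = 0.2), and its own level was not called (log2 fold change 0.20, limma adjusted p = 0.070). It was called higher, among other settings, without ES replicate 3 (0.26, limma adjusted p = 0.036) and with median centring (0.30, limma adjusted p = 0.017). Rpl36al rose by 0.14 ± 0.05 (limma, adjusted p = 0.042), a call lost on removal of any library but ES replicate 2 and SCI replicate 2 (limma, adjusted p = 0.083 to 0.12). That call was also lost under quantile normalization (0.09), with equal totals (0.07) and with mitochondrially encoded genes left out (limma, adjusted p = 0.19, 0.24 and 0.057). The ratio of Rpl36al to Rpl36a differed by 0.06 and that of Rpl7l1 to Rpl7 by 0.05, each with an exact permutation p of 0.4. Rpl39l measured 0.14, 0.24 and 0 FPKM in ES and 1.09, 0.94 and 0.47 in SCI, and Rpl3l, a paralog known from striated muscle, was above 0 in 2 ES libraries and listed at 0 in the SCI libraries.

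The picture changed for some proteins when their copies were added. Besides the 85 rows, the table has 128 other rows described as cytosolic ribosomal proteins, 96 of them with a single exon. Summing all rows that name the same protein, a step added after the values were seen, gave 24 higher and 13 lower of the 75 proteins (17.9% and 28.2% of all genes in that fit, or 46.1% in either direction). Of 24 called genes that have such other rows, 20 kept their direction and 3 were no longer called. Among the 26 uncalled genes with other rows, 4 were called as sums, namely Rpl31, Rpl39, Rplp2 and Rps12, all higher. All 213 rows together summed to 39744 ± 447 FPKM in ES and 38725.0 ± 400.3 in SCI, and the 128 other rows alone were 6.43% above SCI. The genes Rps4x, Rps12, Rps15a, Rps27a, Rps29, Rpl5 and Rpl23a, and every other copy or gene named outside the rule for named genes, were chosen after their values were seen.

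Rpl30 had the largest rise of the 75 genes tested, and its copy moved as far the other way. Rpl30, 4 exons on chromosome 7 (73213581 to 73216251 in the files' coordinates, whose build is not stated), measured 428.1, 418.8 and 432.8 FPKM in ES and 299.7, 275.1 and 256.3 in SCI. The single-exon row LOC100362027, described as L30-like, on chromosome 10 (38024477 to 38024937), measured 235.4, 231.3 and 231.9 FPKM in ES and 375.9, 390.6 and 384.5 in SCI. Neither row overlapped between groups, and in SCI the copy stood above the gene while in ES it stood below. Their changes were 0.62 ± 0.05 and -0.72 ± 0.02 on the log2 scale (limma, adjusted p = 0.00018 and 3.9e-06). All 7 rows of L30 summed to 665.6, 653.3 and 666.6 FPKM in ES and to 678.1, 667.8 and 642.2 in SCI, a log2 fold change of -0.0015 ± 0.03 (limma, adjusted p = 0.97). The share of the sum held by Rpl30 was 64.4% in ES and 41.8% in SCI. How the reads were placed between these rows was not tested.

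**Figure D4:**
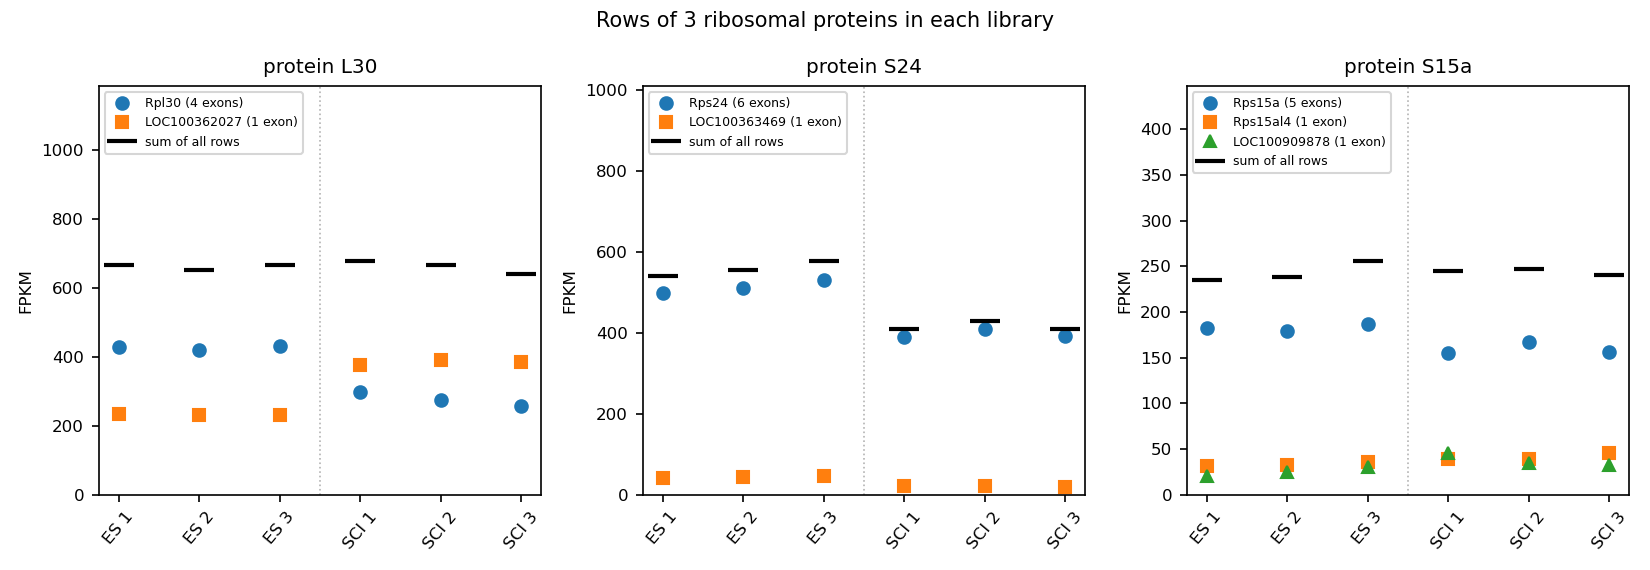
FPKM in each library of the rows of proteins L30, S24 and S15a with a mean of at least 20 FPKM, and the sum of all their rows (black bars). Rpl30 and its copy exchange places between the groups at a flat sum, and for S24 the gene and its copy are both higher in ES.

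Rps15a rose by 0.20 ± 0.04 on the log2 scale while its single-exon rows Rps15al4 and LOC100909878 fell by 0.31 and 0.55, and the sum for S15a, 243 ± 11.3 FPKM in ES and 244 ± 3.25 in SCI, was not called. That sum uses the gene value of Rps15a. The 4 transcripts of Rps15a summed to 3.42 times that value (610 FPKM in ES and 560 in SCI), so the flat sum holds for gene values only. Rps24 and its single-exon row LOC100363469 rose together, the copy measuring 43.2 ± 2.42 FPKM in ES and 20.04 ± 1.18 in SCI, and the sum rose by 0.42 ± 0.03. Rpl35a, which has a single exon in this table, rose by 0.53 ± 0.12 (limma, adjusted p = 0.012), and its sum over 4 rows by 0.19 ± 0.06 (limma, adjusted p = 0.049). Rps12 measured 334 ± 21.0 FPKM in ES and 358 ± 24.6 in SCI and was not called. Its S12-like rows LOC100360573 and LOC100361933 rose by 0.43 and 0.49, and the sum by 0.19 ± 0.04 (limma, adjusted p = 0.0046).

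For 9 of the 77 symbols every row had a single exon: Rpl9, Rpl10l, Rpl35a, Rpl36al, Rpl37, Rpl38, Rpl39, Rps13 and Rps29. For Rps29 the row that carries the symbol held 18.9 ± 0.87 FPKM in ES and 23.0 ± 4.01 in SCI, while a 3-exon row described as S29 without the symbol, LOC108352650 on chromosome 6, held 1018 ± 16.0 and 1086 ± 52.6. The symbol row was 1.77% of all S29 FPKM in ES and 2.02% in SCI, and the S29 sum was not called (log2 fold change -0.09 ± 0.04, limma adjusted p = 0.11). Rps13, at 47.9, 55.1 and 50.3 FPKM in ES and 39.5, 38.8 and 38.3 in SCI, rose by 0.38 ± 0.05 (limma, adjusted p = 0.0013) in such a row.

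Row by row, 6 of 16 single-exon rows were higher in ES and 3 lower, with a median change of 0.32 in size. Of 67 rows with several exons, 16 were higher and 14 lower, with a median size of 0.11. The background for rows was 17.4% higher and 27.6% lower, or 45.0% in either direction.

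Some copies moved between libraries of the same group rather than between groups. Of the 85 rows, 3 differed over 2-fold between libraries of a group at a mean of at least 2 FPKM, a Rpl21 row and both Rpl7a rows, against 505 of 12868 rows in the whole table (3.92%). Among the 71 other single-exon rows at that level, 22 did so. The Rpl7a rows, each with 7 exons, lie on chromosome 3. The first measured 110.2, 108.7 and 178.8 FPKM in ES and 84.3, 82.2 and 181.7 in SCI, and the other measured 125.7, 120.7 and 54.6 in ES and 90.2, 183.0 and 68.5 in SCI. Where the first was highest, in replicate 3 of each group, the other was lowest. Their sum was 235.9, 229.4 and 233.4 FPKM in ES and 174.5, 265.1 and 250.2 in SCI, not called (log2 fold change 0.04 ± 0.15), and without SCI replicate 1 it was -0.14 and called (limma, adjusted p = 0.018).

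Rps27a, which is made as a fusion with ubiquitin, showed the same exchange at a smaller size. Its 5-exon row on chromosome 14 measured 607, 358.7 and 611.5 FPKM in ES and 386.3, 365.3 and 581.5 in SCI. Its single-exon row on chromosome 5 measured 273.1, 471.3 and 332.1 in ES and 402.1, 406 and 207.9 in SCI. Neither row was called alone, but the sum, 880.1, 830 and 943.6 FPKM in ES and 788.4, 771.4 and 789.4 in SCI, rose by 0.17 ± 0.05 (limma, adjusted p = 0.020). Without ES replicate 1 or SCI replicate 2 that call was lost (limma, adjusted p = 0.052 and 0.055), as it was with equal totals. Single libraries also stood apart in Rps16, where SCI replicate 1 held 189.1 FPKM against 259.3 to 266.6 in the other 5, and in Rpl39, where SCI replicate 2 held 93.1 FPKM against 46.9 to 71.5. Without that library Rpl39 was called higher, at 0.53 on the log2 scale (limma, adjusted p = 0.00030).

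**Figure D5:**
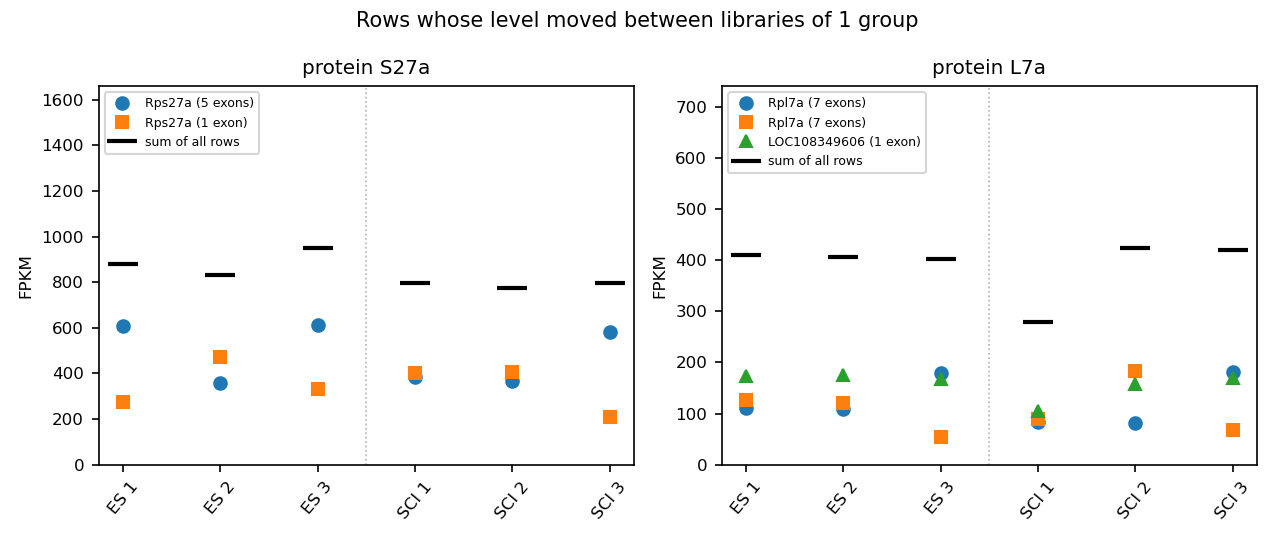
FPKM in each library of the rows of proteins S27a and L7a with a mean of at least 20 FPKM, and the sum of all their rows (black bars). Rows of the same protein exchange level between libraries of 1 group, and the L7a sum is low in SCI replicate 1.

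The deposited transcripts add detail for the 17 rows that have several. Of their 58 transcripts 52 were tested, in a fit added after the values were seen, and 9 were higher and 5 lower (12.8% and 19.5% of all transcripts, or 32.3% in either direction). In Rps18 the transcript ENSRNOT00000092476 held 33.0% of the gene's transcript FPKM in ES and 23.6% in SCI. In Rps4x, whose gene level was not called as deposited but was lower with equal totals (-0.10) and quantile normalization (-0.16), ENSRNOT00000076978 held 9.26% in ES and 2.72% in SCI. Rpl3 has a pair of 10-exon transcripts, of which ENSRNOT00000067032 held 414.9 to 485.8 FPKM in 5 libraries and 0 in SCI replicate 2, where ENSRNOT00000089407 held 440.7.

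Transcripts also bear on levels between genes. The gene FPKM of rows with 1 transcript equalled the transcript FPKM, but in rows with several the transcripts summed to a median of 2.07 times the gene value. The sums by protein were made from gene values. On the transcript-sum scale Rpl41, Rplp1 and Rpl26 stood highest in ES, at 1286, 1069 and 1007 FPKM, and Rps18 reached 947 where its gene value was 188.

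Of 39 translation factors tested 17 rose and none fell (limma, with 2 lower at an unadjusted p under 0.05), at a median log2 fold change of 0.13. The background was 17.8% of all genes called higher and 28.0% lower. Median centring gave 28 and 0 (26.5% and 19.0% of all genes) and equal totals 15 and 5 (13.3% and 36.2%). Quantile normalization gave 15 and 2 (22.2% and 21.0%). Eif4a1, the helicase that unwinds the start of the message, measured 250 ± 2.48 FPKM in ES and 190 ± 3.47 in SCI (log2 fold change 0.40 ± 0.02, limma adjusted p = 2.9e-05). Eef1a2, the elongation factor of neurons and muscle, rose from 24.3 ± 0.52 to 46.5 ± 1.93 FPKM (0.91 ± 0.04, limma adjusted p = 9.4e-06). Eif3a, the largest initiation factor 3 subunit, rose by 0.31 and Btf3, of the nascent chain complex, by 0.22.

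Of 42 ribosome assembly factors 8 rose and 5 fell, against 17.8% and 28.0% of all genes. The split was 16 and 0 with median centring (26.5% and 19.0% of all genes) and 5 and 8 with equal totals (13.3% and 36.2%). Npm1, a nucleolar chaperone, held 202 ± 4.43 FPKM in ES and 134 ± 6.60 in SCI (0.60 ± 0.04, limma adjusted p = 5.5e-05), and Fbl, the methylase of ribosomal RNA, rose from 30.3 ± 1.55 to 40.7 ± 2.04 (0.41 ± 0.05, limma adjusted p = 0.00092). Pes1 and Nop58, also nucleolar, rose by 0.24 and 0.23. Of 12 genes of RNA polymerase I, which makes ribosomal RNA, none rose (limma, with 1 higher at an unadjusted p under 0.05) and 2 fell, Polr1a by 0.45 and Taf1c by 0.38. Under quantile normalization or median centring 3 were called higher (22.2% and 26.5% of all genes).

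Of 24 genes of mTORC1 and TOP control 2 rose and 10 fell (median -0.09, or 0.01 with median centring). The shares over all genes were 17.8% and 28.0%. Sesn3 and Ddit4, which restrain mTORC1 under stress, fell from 25.6 ± 0.97 to 12.0 ± 0.53 FPKM and from 71.9 ± 2.86 to 42.4 ± 1.95 (limma, adjusted p = 1.2e-05 and 3.7e-05). Larp1, which binds the capped start of TOP messages, fell from 23.1 ± 1.29 to 15.4 ± 0.44 FPKM (log2 fold change -0.56 ± 0.05, limma adjusted p = 0.00020), and Tsc1, of the complex that restrains mTORC1, to 4.36 ± 0.16 FPKM from 7.00 ± 0.57. Myc, an activator of ribosomal protein genes, was among the genes that fell, and Tsc2 among those that rose.

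Of 74 mitochondrial ribosomal proteins 12 rose and 8 fell, against 17.8% and 28.0% of all genes. The split was 24 and 0 with median centring (26.5% and 19.0% of all genes) and 11 and 18 with equal totals (13.3% and 36.2%). Mrps10, Mrps25, Mrpl42 and Mrps18a rose by 0.75, 0.45, 0.33 and 0.25 on the log2 scale. Of 4 listed other proteins of the cytosolic ribosome, Rpsa, Rack1 and Fau among them, none was called by limma (0 at an unadjusted p under 0.05). That list is not complete, as 7 ribosomal proteins have rows but no symbol among the 77. Summed by protein, S14, S26 and L22 were called higher, by 0.31, 0.96 and 0.10 (limma, adjusted p = 0.00023, 0.00046 and 0.012). The change of S26 was at a low level, as its 5 rows summed to 12.87, 16.50 and 12.73 FPKM in ES. In SCI they summed to 7.24, 6.51 and 6.24 FPKM. The ES means of S14 and L22 were 519.2 and 344.5 FPKM. Whether these 5 rows hold most of the S26 reads was not tested. S19 was called lower, by 0.13 (limma, adjusted p = 0.0078), and L40, S30 and SA were not called. Fau, which carries S30, ran from 55.9 to 171.2 FPKM in ES and from 25.8 to 194.6 in SCI. Without SCI replicate 3, the highest, Fau was called at 1.93 (limma, adjusted p = 0.021). Rps4y2, a paralog of Rps4x, fell from 19.5 ± 1.18 to 14.8 ± 1.22 FPKM.

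Marker genes of several cell types differed between the groups, and their part in these results was not tested. Over all genes tested 17.8% were called higher and 28.0% lower. All 7 erythroid markers tested of 9 listed were called higher, with summed levels of 3090 to 3300.1 FPKM in ES and 538 to 566 in SCI. All 7 oligodendrocyte markers were higher, at 13319.6 to 13349.9 FPKM against 8392 to 8476, and 5 of 6 astrocyte markers lower, at 2175 to 2330.1 against 3384 to 3424. Of the neuronal markers 6 of 9 tested of 10 listed were higher (318 to 329 FPKM against 242 to 246, with Isl1 under 0.5 FPKM throughout), of the microglial and macrophage markers 5 of 7 (969.9 to 1028 against 893 to 917), and of the proliferation markers 6 of 6 (127 to 137 against 88.3 to 95.5). Of 6 Schwann cell markers, which share Mbp with the oligodendrocyte list, 2 were higher and 4 lower (7805 to 7844 FPKM against 6031 to 6177). Of the fibroblast and meningeal markers 5 of 5 tested were lower (595 to 603 FPKM against 716 to 732), and of the neutrophil markers 4 of 5 tested were higher, with Ltf, Mpo and Elane under 0.5 FPKM throughout. Hox genes that mark position along the cord were present at a summed 34.9 to 40.5 FPKM in ES and 45.5 to 49.8 in SCI, with 2 of 5 tested called lower.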

How the data were processed

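Per the labels' protocols, the paired-end libraries were stranded, started from poly(A) RNA out of 1 µg of total RNA, and had inserts of about 300 bp. The submitters' processing notes name HISAT and StringTie. Not given in the sources used here are versions, settings, the genome build and the counting of reads that match several copies. The authors deposited FPKM values per gene and per transcript, with 0 written as 0.0001, which was read as 0. The authors also deposited a ratio of group means (fold), its log2, and a p-value and q-value per row, from a test not given in the sources used here.

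Treatment and replicate number tied each column to its sample. Rows sharing a symbol were summed, and log2(FPKM + 1) was compared with limma 3.58.1 in R 4.3.3 (mean-variance trend, two-sided, Benjamini-Hochberg over genes with a mean of at least 0.5 FPKM), after the fit was tested on simulated data. Paralog ratios were compared by exact permutation (scipy 1.17.1). Rows with a FPKM ratio over 2 within a group at a mean of at least 2 were noted. Depth was estimated from the smallest step of transcript FPKM times length. Start windows came from RefSeq (GRCr8). Coordinates of rows are those of the files.

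The 77 genes and all lists were chosen with earlier results of these data known. Genes named were the 8 with the smallest p in each direction, the 5 with the highest FPKM, the stalk genes, paralog pairs, unstable copies and, per other list, up to 4 by p. A few genes that meet this rule are not reported here. The transcript fit and the sums by protein were added after the values were seen. Alternatives were other pseudocounts, filters, scalings, thresholds, quality weights, no trend, a replicate block, rows kept apart and each library left out.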

Additional observations from a re-analysis of the deposited data

How the results depend on the processing

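The count of all genes called was 7071 (2745 higher and 4326 lower) and stayed within 1.5 times that under every alternative run except the 1.5-fold requirement, which left 1665 genes, and 1 higher and 1 lower of the 75 ribosomal protein genes. Against 21 higher and 15 lower, median centring gave 37 and 6 (4087 and 2933 over all genes), quantile normalization 11 and 24 (3431 and 3251), equal totals 14 and 26 (2062 and 5586), and the authors' deposited p-values 23 and 5 rows. The median log2 fold change of 0.01 became 0.11 with median centring, 0.038 with sums by protein, -0.049 with quantile normalization, -0.064 with equal totals, 0.024 with rows kept apart and 0.023 in the authors' deposited table. With equal totals the summed FPKM differed by -3.59% over all 77 genes, -3.56% in the large subunit, -2.36% in the small subunit and -9.72% in the stalk. The cause of these shifts was not tested.

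Leaving out 1 library at a time gave 18 to 22 genes higher, 12 to 18 lower, a median of 0.0078 to 0.019 and a difference in summed FPKM of 1.02% to 1.98%. Over the same settings the difference in log2 ratio ran from -1.24 to -1.10 for Rpl10l to Rpl10, 0.10 to 0.27 for Rps27l to Rps27, 0.01 to 0.12 for Rpl36al to Rpl36a and 0.01 to 0.08 for Rpl7l1 to Rpl7.

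A sign was counted as turned where the gene was called in at least 1 of the fits compared, a rule set after the values were seen. Summing by protein turned, among others, Rpl30 (-0.0015), Rps15a (-0.0090), Rplp2 (0.13) and Rps12 (0.19). Median centring turned, among others, Rpl13a (0.082), Rpl18 (0.063), Rpl27a (0.095), Rpl35 (0.081), Rps7 (0.0043) and Rack1 (0.075). Leaving out SCI replicate 1 turned Rpl7a (-0.14), which ran up to 0.16 without another library.

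Whether a replicate number marks a shared animal or batch is not in the labels. Same-numbered libraries had deviations correlated at -0.0149, -0.0242 and -0.0476, and differently numbered ones at -0.0611 to 0.0847. With the replicate block 6381 genes were called, among them 21 ribosomal protein genes higher and 16 lower. Rpl15 and Rpl36al were no longer called and Rps27l and Rps29 were. With 3 libraries a group, the SE of the log2 fold change ran from 0.018 to 0.25, the latter for Rpl39. Differences larger than their SE could also go uncalled, as for Rpl14 (0.050, SE 0.019) and Rps27l (0.20, SE 0.076).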
